A study of Mus musculus with 4 samples.

Results

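The genes described here are 9 markers of adipose stroma and lipid uptake: Cd34, Dpp4, Pi16, Ly6a, Lpl, Cd36, Fabp4, Pparg and Adipoq. They were taken by symbol from the 32285 genes of the single-cell RNA sequencing (scRNA-seq) files, where each symbol matched 1 gene. The study asked what happens to pancreatic tumors of obese mice when stromal cells that express platelet-derived growth factor receptor β (Pdgfrb), or stromal cells that resemble adipose stromal cells (ASC), are killed. KPC FC1242 cells, a line from a genetic mouse model of pancreatic ductal adenocarcinoma, were grafted into the pancreas of male C57BL/6 mice. Every host, controls included, had been fed a high-fat diet. The labels give an age of 7 months, and the study's methods give another. The labels' protocol text describes nuclei of a brain region, so the study's methods were followed for how the tumors were handled.

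There was 1 library for each of 4 conditions, made from tumor cell suspensions that the study's methods describe as pooled by treatment. Pdgfrb-TK hosts carry a thymidine kinase transgene under the Pdgfrb promoter, so that any Pdgfrb-expressing cell that divides, pericytes included, can be killed by ganciclovir (GCV). The library Pdgfrb-TK/GCV came from such hosts given GCV, and Pdgfrb-TK/PBS from such hosts given PBS. D-CAN is a peptide of D-amino acids that joins an ASC-homing sequence to one that induces apoptosis, and its reach also includes pericytes. The library D-CAN came from wild-type hosts given it, and WT/PBS from wild-type hosts given PBS. The control of each treatment was PBS in the same host, and 4 values in a row are given for the Pdgfrb-TK hosts first (GCV, then PBS) and the wild-type hosts second (D-CAN, then PBS).

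White adipose tissue holds fibroblast-like progenitors that carry surface proteins such as CD34, SCA-1 (the product of Ly6a) and DPP4, together with PI16. Such cells give rise to preadipocytes, which switch on Pparg and genes of lipid uptake, and then to adipocytes, which secrete adiponectin. Lipid uptake is divided between cells: lipoprotein lipase made by stromal cells and macrophages acts at the capillary wall, and endothelial cells take up the freed fatty acids through CD36 and bind them with FABP4. Several of these genes therefore have known uses outside adipose stroma, in endothelium, macrophages and epithelium.

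The sequences upstream of Cd34, Dpp4 and Pi16 are shown because these progenitor genes were all higher in fibroblast-marker cells of the D-CAN library. Each is the 250 bases before a start site in the RefSeq table for GRCm38.p6, read 5′ to 3′ on the gene's strand. Capitals mark matches on either strand to the TATA box TATAAA, the CCAAT box, the GC box GGGCGG and the nuclear receptor site AGGTCA, and no matches overlapped here.
Cd34, chr1:194938571-194938820, plus strand: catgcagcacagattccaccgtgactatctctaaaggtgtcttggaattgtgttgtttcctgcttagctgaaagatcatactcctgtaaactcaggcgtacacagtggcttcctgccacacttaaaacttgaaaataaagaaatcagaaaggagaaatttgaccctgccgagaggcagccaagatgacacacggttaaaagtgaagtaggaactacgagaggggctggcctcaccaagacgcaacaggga
Dpp4, chr2:62412232-62412481, minus strand: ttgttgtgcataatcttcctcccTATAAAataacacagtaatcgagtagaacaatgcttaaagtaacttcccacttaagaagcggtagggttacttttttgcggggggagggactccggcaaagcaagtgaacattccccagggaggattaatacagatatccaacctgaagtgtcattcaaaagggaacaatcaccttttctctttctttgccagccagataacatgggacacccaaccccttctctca
Pi16, chr17:29318632-29318881, plus strand: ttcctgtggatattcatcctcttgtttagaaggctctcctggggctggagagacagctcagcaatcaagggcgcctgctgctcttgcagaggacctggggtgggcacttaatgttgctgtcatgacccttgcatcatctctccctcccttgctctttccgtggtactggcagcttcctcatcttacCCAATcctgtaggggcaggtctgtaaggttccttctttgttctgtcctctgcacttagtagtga
The Cd34 window held none of the 4 motifs, the Dpp4 window held TATAAA at -227 and the Pi16 window held CCAAT at -64, counted from the start site. Of 32536 windows of the same length, 12.3% held TATAAA, 33.8% CCAAT, 33.0% GGGCGG and 14.0% AGGTCA. The GC content of the windows was 46.4%, 43.6% and 52.4%, against a median of 52.4% over all windows. The Pi16 start used by RefSeq lies 1202 bases inside the gene as GENCODE M21 draws it. These matches describe letters and not binding sites.

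Between 10178 and 12280 cells per library had at least 200 genes, more than the target the study's methods give, and the libraries held 84020317 to 155408336 unique molecular identifiers (UMIs). A cell was put in 1 of 12 classes when at least 3 of 8 markers of the class were detected and every other class had at least 2 fewer. None of the 9 genes was a gate marker. Classes are named by these markers: cancer-associated fibroblast (CAF), endothelial cell (EC), macrophage, KPC tumor cell and others. The gate found 246, 459, 1152 and 1846 CAF-marker cells, 47, 138, 93 and 385 EC-marker cells, 1470, 389, 876 and 771 macrophage-marker cells and 6310, 6476, 2816 and 4293 KPC-marker cells. It left 25.4% to 37.7% of cells unassigned, and 14.7% to 30.1% of CAF-marker cells lay at the edge of the gate. Pairs of libraries shared 26 to 42 cell barcodes, at most 0.342% of a library. No doublets were called. The gate left out cells whose leading class was ahead by fewer than 2 markers, but kept some with markers of another class: in Pdgfrb-TK/GCV 99 of 246 CAF-marker cells and 101 of 459, 120 of 1152 and 229 of 1846 in the other libraries had at least 2 mesothelial markers.

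The first question was in which cells of the tumor the genes are used. UMIs were summed per class and library and given as CPM, counts scaled to 1000000 UMIs of the class, and the 4 large classes were compared over the 4 libraries with edgeR, with the library as a block. All 9 genes were listed, and 8 of them, all but Adipoq, had enough counts for the test. Of their 48 class differences 40 passed an adjusted p of 0.05. CAF-marker cells were above EC-marker cells for 3 genes and below for 4, where 34.3% of all genes tested differed. Against KPC-marker cells 7 were higher and 1 lower (54.2% of all genes), and against macrophage-marker cells 5 higher and 2 lower (51.1%). EC-marker cells were above KPC-marker cells for 4 genes and below for 1 (46.3%), and above macrophage-marker cells for 4 and below for 2 (41.1%). Macrophage-marker cells were above KPC-marker cells for 5 and below for 2 (58% of all genes).

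**Figure D1:**
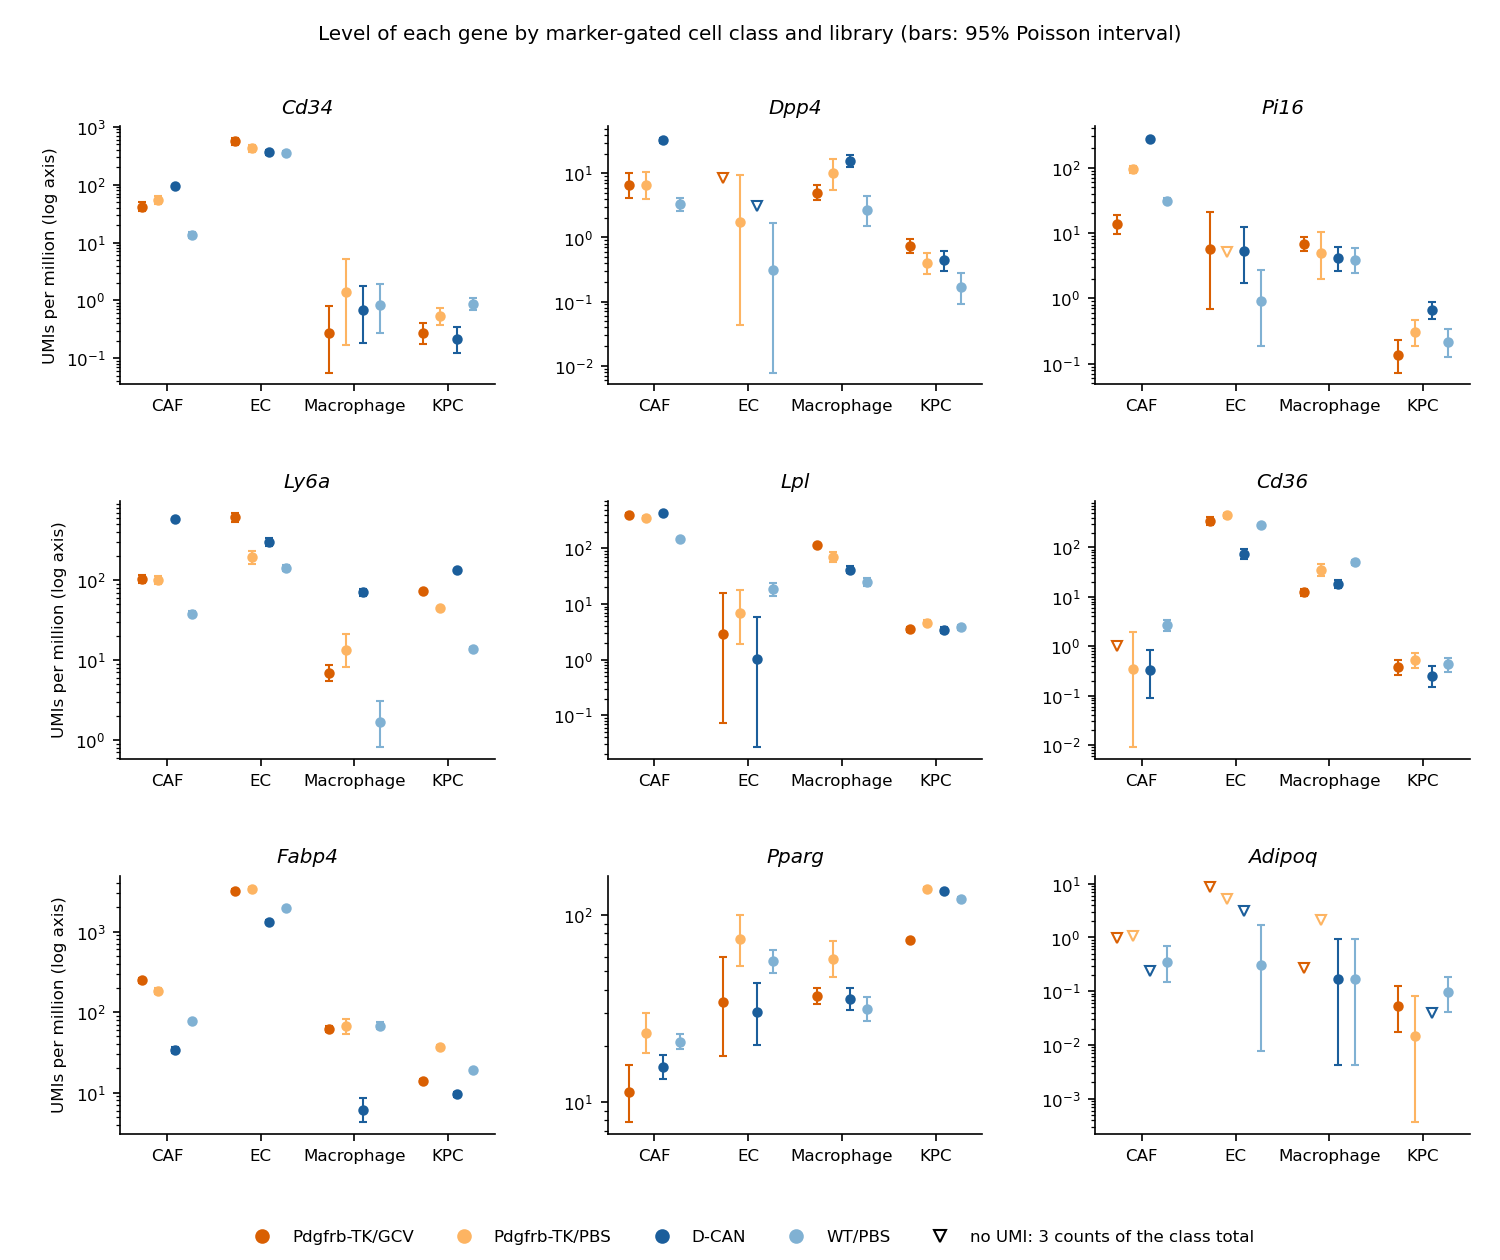
Level of each of the 9 genes (CPM, log axis) in CAF-, EC-, macrophage- and KPC-marker cells, 1 colored point per library with its exact 95% Poisson interval; open triangles stand at 3 counts of the class total where no UMI was found. Cd34, Cd36 and Fabp4 sit highest in EC-marker cells, Pi16 and Lpl in CAF-marker cells and Pparg in KPC-marker cells in all 4 libraries.

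Cd34, a sialomucin of stromal progenitors and endothelium, lies on chromosome 1 at 194938819 to 194961279 (GRCm38, plus strand). Its levels in EC-marker cells were 561, 424, 361 and 357 CPM. In CAF-marker cells they were 41.6, 54.9, 94.6 and 13.5 CPM. The level was thus highest in EC-marker cells in every library, and the EC range did not overlap the CAF range. By number of UMIs the order differed in the D-CAN library, where CAF-marker cells held 66.7% of its Cd34 UMIs and EC-marker cells 19.8%. The difference of CAF from EC was -2.90 on the log2 scale (SE 0.52, edgeR adjusted p = 0.000593), and that of EC from KPC 9.62 (SE 0.68, adjusted p = 7.31e-08). In macrophage-marker cells 2 to 5 UMIs were counted, in KPC-marker cells Cd34 was at 0.213 to 0.864 CPM, and these classes did not differ from each other beyond their spread (0.50, adjusted p = 0.703).

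Dpp4, a membrane peptidase of interstitial progenitors that T cells also carry, lies on chromosome 2 at 62330073 to 62412231 (minus strand). In CAF-marker cells it was at 6.65, 6.68, 32.7 and 3.33 CPM and in macrophage-marker cells at 5.01, 9.98, 15.8 and 2.69 CPM. These 2 classes overlapped (0.41, adjusted p = 0.469), and both were above KPC-marker cells (CAF minus KPC 4.53, adjusted p = 2.63e-06). Among classes with at least 20 cells, levels in CPM above those of CAF-marker cells were found in B-marker cells of the first 3 libraries. They were also found in T/NK-marker cells of Pdgfrb-TK/GCV and D-CAN, in dendritic-marker cells of D-CAN and in macrophage-marker cells of Pdgfrb-TK/PBS. In the D-CAN library the 57 dendritic-marker cells had 238 CPM, and T/NK-marker cells had 60.9 CPM there and 74.1 CPM in Pdgfrb-TK/GCV. B-marker cells had 66.5, 82.6 and 40.4 CPM in the first 3 libraries. In WT/PBS the T/NK-marker cells were at 0, and CAF-marker cells had the highest level of the classes with at least 20 cells.

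Pi16, a peptidase inhibitor that marks a pool of progenitor fibroblasts shared by many tissues, lies on chromosome 17 at 29317680 to 29330593 (plus strand). CAF-marker cells held it at 13.6, 93.5, 276 and 31.3 CPM, with D-CAN highest and Pdgfrb-TK/GCV lowest. Macrophage-marker cells held 6.84, 4.99, 4.09 and 3.86 CPM, below every CAF value. The CAF class was above EC by 5.36, above macrophages by 3.46 (SE 0.60, edgeR adjusted p = 0.000237) and above KPC by 8.01 (SE 0.65, adjusted p = 1.87e-07). Pi16 was the progenitor gene with the clearest place: CAF-marker cells held 84.7%, 89.7% and 88.5% of its UMIs in the last 3 libraries. In Pdgfrb-TK/GCV they held 20.2%, and macrophage-marker cells, the larger class there, held 36.9%.

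Ly6a, which encodes SCA-1, a lipid-anchored protein of stem and progenitor cells, lies on chromosome 15 at 74994877 to 74998031 (minus strand). EC-marker cells had 616, 195, 304 and 142 CPM. CAF-marker cells had 104, 101, 590 and 38.1 CPM, and the classes overlapped (-1.12, adjusted p = 0.114). KPC-marker cells had 73.2, 45.1, 133 and 13.8 CPM, so that the tumor cells, by their number, held most of the Ly6a UMIs in Pdgfrb-TK/GCV (83.2%) and Pdgfrb-TK/PBS (80.6%). CAF was above KPC by 1.41 (adjusted p = 0.0275), a call that was lost without Pdgfrb-TK/PBS (0.0802) or without WT/PBS (0.0637).

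Lpl, the lipase that frees fatty acids from lipoproteins, lies on chromosome 8 at 68880491 to 68907448 (plus strand). CAF-marker cells had 405, 357, 429.8 and 146 CPM. Macrophage-marker cells had 115, 69.2, 41.7 and 25.2 CPM, each below the lowest CAF value. EC-marker cells, at whose surface the protein acts, held few transcripts, with 1, 4, 1 and 60 UMIs. The CAF class was above EC by 4.97 (SE 0.60, edgeR adjusted p = 1.90e-05), above macrophages by 2.43 (SE 0.47, adjusted p = 0.000565) and above KPC by 6.46. EC and KPC did not differ beyond their spread (1.48, adjusted p = 0.0659).

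Cd36, the fatty acid translocase and scavenger receptor, lies on chromosome 5 at 17781690 to 17888801 (minus strand). EC-marker cells had 349, 450.1, 73.9 and 278 CPM and macrophage-marker cells 12.3, 34.9, 18.05 and 49.6 CPM. CAF-marker cells held 0, 1, 4 and 61 UMIs, the last equal to 2.67 CPM. Fibroblast-marker cells were thus almost without this transcript in every library, with a UMI in 0 of 246 cells in Pdgfrb-TK/GCV (exact interval of the share of cells with a UMI 0% to 1.49%). Their difference from EC was -7.64 on the log2 scale (SE 0.56, edgeR adjusted p = 2.08e-07). That from KPC (1.58, adjusted p = 0.0395) turned to -0.091 without WT/PBS. In the D-CAN library the highest sum was in the 57 dendritic-marker cells, at 458 CPM, and these held 36.0% of its Cd36 UMIs.

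Fabp4, the fatty acid binding protein of adipocytes, capillaries and macrophages, lies on chromosome 3 at 10204088 to 10208576 (minus strand). EC-marker cells had 3159, 3390.3, 1297 and 1956 CPM. CAF-marker cells had 249.7, 181, 34.0 and 76.8 CPM and macrophage-marker cells 61.6, 66.3, 6.13 and 67.9 CPM. EC was above each of the other 3 classes in every library. CAF minus EC was -4.18 (SE 0.45, edgeR adjusted p = 7.33e-06) and EC minus KPC 6.81 (SE 0.51, adjusted p = 1.22e-07). CAF minus macrophage was 1.32 (adjusted p = 0.0171) and lost its call without Pdgfrb-TK/GCV (0.0715) or without Pdgfrb-TK/PBS (0.0672). The pericyte-marker cells of the 3 libraries with at least 20 of them also had high levels, at 1810.3, 771 and 1926 CPM.

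Pparg, the nuclear receptor that drives adipocyte formation, lies on chromosome 6 at 115360951 to 115490399 (plus strand). It was highest of the 4 classes in KPC-marker cells, at 73.2, 138, 134 and 122 CPM, and lowest in CAF-marker cells, at 11.3, 23.6, 15.4 and 21.1 CPM. Lpl, by contrast, was highest in CAF-marker cells. CAF was below KPC (-2.64 on the log2 scale, SE 0.20, edgeR adjusted p = 1.00e-07), below EC (-1.21) and below macrophages (-1.28), and EC and macrophages did not differ beyond their spread (-0.07, adjusted p = 0.838). KPC-marker cells held 70.2% to 89.1% of the Pparg UMIs of a library.

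Adipoq, which encodes adiponectin, lies on chromosome 16 at 23146536 to 23158028 (plus strand) and marks mature fat cells. The libraries held 6, 2, 2 and 111 of its UMIs, and the WT/PBS library thus stood apart. There, 6 cells with 5 or more Adipoq UMIs held 92 of the 111 (82.9%), at 32, 20, 18, 11, 6 and 5 UMIs. The gate left 4 of these cells unassigned, called 1 adipocyte-marker and called 1 CAF-marker. They also held 4037 of the 4163 UMIs of Cfd, the adipocyte serine protease adipsin, while the other libraries held 5, 0 and 0 Cfd UMIs. Each carried 101 to 300 Fabp4 UMIs and 6 to 38 Lpl UMIs. The other 19 Adipoq UMIs of WT/PBS lay in 18 cells. No library held a class of adipocyte-marker cells beyond this 1 cell, and the adipocyte transcript Lep had 0, 0, 0 and 3 UMIs. Other adipocyte transcripts were not highest in WT/PBS: Plin1 had 38, 3, 7 and 17 UMIs and Cidec 1516, 2225, 1555 and 1636. In the 6 cells, Plin1 had 0, 2, 0, 0, 0 and 4 UMIs.

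**Figure D2:**
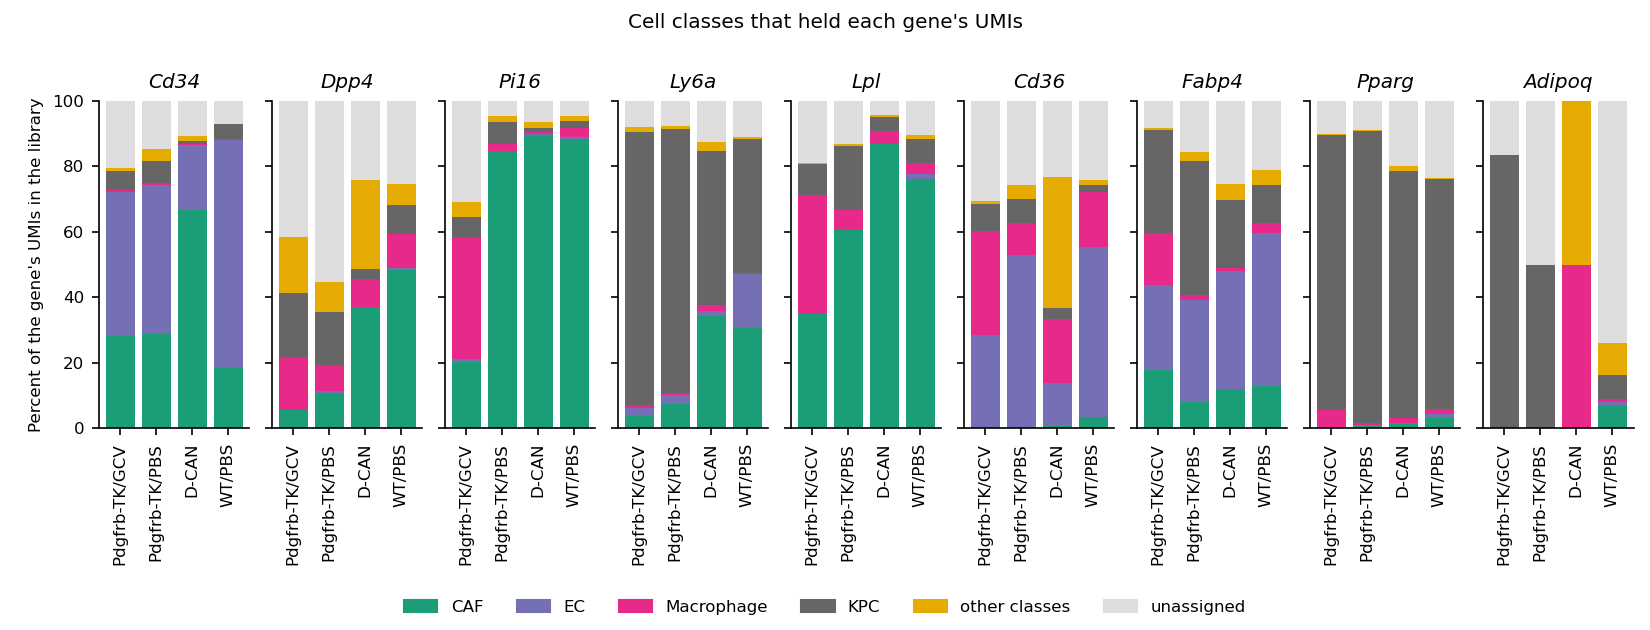
Percent of each gene's UMIs in a library (stacked bars) that lay in CAF-, EC-, macrophage- and KPC-marker cells, in other classes and in unassigned cells, 1 bar per library. Pi16 and Lpl lie mostly in CAF-marker cells outside the Pdgfrb-TK/GCV library, while Pparg lies in KPC-marker cells in all 4 libraries.

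CAF-marker cells were the class with the most UMIs of a gene in 9 of 36 pairs of gene and library. A level measured in the whole tumor would therefore mix classes for most of these genes, and fewer cells of a class and less RNA per cell cannot be told apart in it. The name of the set describes a use in adipose tissue: in these tumors 2 of the 9 genes, Pi16 and Lpl, were highest in CAF-marker cells among the 4 tested classes in every library.

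The next question was how CAF-marker cells of the treated tumors differed from those of the PBS tumors of the same host. With 1 library per condition no test between treatments was possible, and the intervals given are exact 95% intervals that cover counting error only. A gene was counted as past 2-fold on CPM with 1 CPM added to each library, when the pair held at least 20 UMIs, while the folds given are of CPM as measured. After D-CAN, 8 of the 9 genes had enough UMIs, 5 were higher and 2 lower past 2-fold. Over all 15482 genes compared, 11.7% were higher and 6.41% lower. After GCV, 7 had enough UMIs, none was higher and 1, Pi16, was lower, where 2.91% of all 11665 genes were higher and 6.25% lower. The median log2 difference of all genes was 0.13 after D-CAN and -0.12 after GCV.

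All 4 progenitor surface genes were higher in CAF-marker cells of the D-CAN library. When all cells were clustered, CAF-marker genes led 2 clusters that the libraries filled unequally: 1 held 561 D-CAN cells and 19 WT/PBS cells (9 and 35 in the Pdgfrb-TK libraries), the other 603 and 1938 (354 and 531). The clusters were drawn from 2000 variable genes, and these genes were not held out of that choice. Ly6a was at 590.4 CPM (interval 577 to 604) against 38.1 (35.6 to 40.8), 15.5-fold higher (14.4 to 16.6). Dpp4 was at 32.7 CPM against 3.33, or 9.82-fold (7.67 to 12.7), and Pi16 at 276 (267 to 285) against 31.3 (29.0 to 33.6), or 8.83-fold (8.14 to 9.58). Cd34 was at 94.6 CPM against 13.5, or 6.99-fold (6.17 to 7.95). D-CAN was also the highest of the 4 libraries for each of these genes. The PBS library of Pdgfrb-TK hosts lay above WT/PBS too, by 4.05-fold for Cd34 (3.32 to 4.93), 2.99-fold for Pi16, 2.66-fold for Ly6a and 2.01-fold for Dpp4. The difference between the PBS controls was therefore smaller than that of D-CAN from WT/PBS for each gene, and set against Pdgfrb-TK/PBS the D-CAN library was higher by 5.83-fold for Ly6a, 4.89-fold for Dpp4, 2.95-fold for Pi16 and 1.73-fold for Cd34.

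The lipid genes did not move as 1 group after D-CAN. Lpl was at 429.8 CPM (418 to 442) against 146 (142 to 152), 2.93-fold higher (2.81 to 3.07). Fabp4 was at 34.0 CPM (30.8 to 37.4) against 76.8 (73.3 to 80.5), 2.26-fold lower (2.03 to 2.52). Cd36 had 4 UMIs against 61, 8.26-fold lower (3.06 to 31.3), and 28 of those 61 lay in the 1 CAF-marker cell with 6 Adipoq UMIs described above. Pdgfrb-TK/PBS was at 0.352 CPM (1 UMI) against 0.324 in D-CAN, close to each other and both below WT/PBS. Pparg was 1.36-fold lower (1.15 to 1.62), within the 2-fold limit. Against Pdgfrb-TK/PBS, Fabp4 was 5.32-fold lower in the D-CAN library. Lpl was 1.21-fold higher there, a smaller difference than between the PBS libraries themselves (2.43-fold).

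After GCV the progenitor gene Pi16 was at 13.6 CPM (9.78 to 18.5) against 93.5 (82.6 to 105), 6.86-fold lower (4.93 to 9.78). Its UMIs lay in 4.07% of 246 cells against 8.50% of 459, with overlapping intervals of these shares. The interval of the ratio leaves out the spread between cells. The Pi16 call was lost when no other class was allowed 2 or more markers (-0.73 on the log2 scale, 33 against 116 cells), and the difference was 2.54-fold in cells without a mesothelial marker. The other progenitor genes were inside the 2-fold limit. Cd34 was 1.32-fold lower, Ly6a was 1.03-fold higher (104 against 101 CPM) and Dpp4 had 20 UMIs against 19. Among the lipid genes Fabp4 was 1.38-fold and Lpl 1.14-fold higher, and Pparg was 2.08-fold lower on CPM (1.36 to 3.25) and just inside the limit with 1 CPM added (-0.997 on the log2 scale). Cd36 and Adipoq had too few UMIs in this pair. Pi16 after D-CAN and after GCV thus lay on opposite sides of its controls, which were of 2 different hosts.

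**Figure D3:**
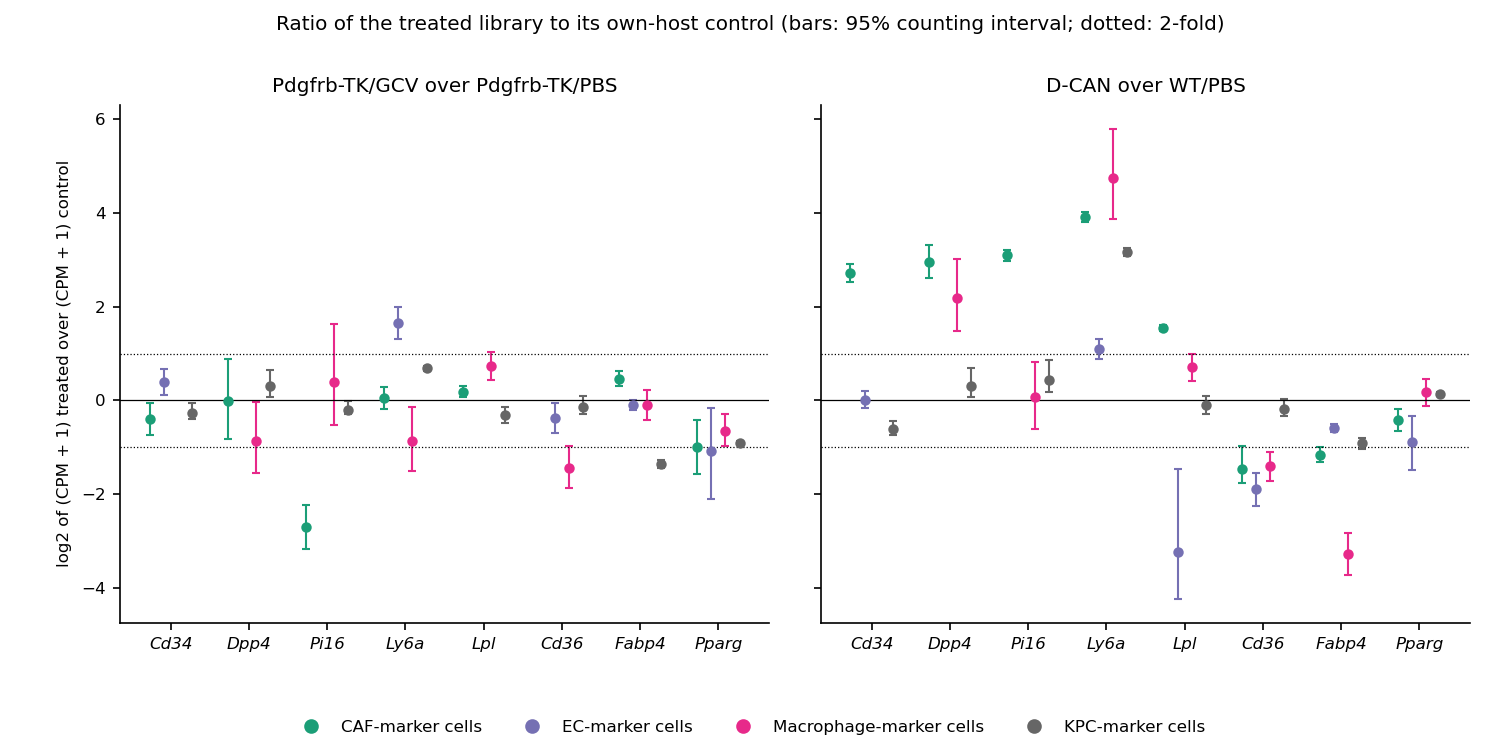
Log2 ratio of CPM (1 CPM added to each) of the treated library to the PBS library of the same host, for each gene with at least 20 UMIs in a pair, colored by cell class, with 95% counting intervals and dotted lines at 2-fold. In CAF-marker cells 5 genes lie above and 2 below the 2-fold lines after D-CAN, and 1 lies below after GCV.

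Markers of mesothelial cells, which line the peritoneum and share genes with fibroblasts, were present in the CAF-marker cells. At least 1 of 8 was detected in 191 of 246, 287 of 459, 680 of 1152 and 976 of 1846 of these cells. The summed level of the 8 markers in them was 282, 338, 211 and 143 CPM, with none of the 8 at 0. KPC-marker cells held the same markers at a higher level, 367, 538, 284 and 492 CPM. At least 1 was detected in 76.5% to 84.04% of KPC-marker cells. Whether these markers in CAF-marker cells came from mesothelial cells or from tumor cell RNA was not tested. In CAF-marker cells without any mesothelial marker, an alternative chosen after the data were seen, D-CAN was above WT/PBS by 8.60-fold for Ly6a, 7.66-fold for Cd34, 4.41-fold for Pi16, 2.84-fold for Dpp4 and 4.38-fold for Lpl, and Fabp4 was 7.59-fold lower. After GCV 55 such cells stood against 172, with Pi16 2.54-fold lower, Fabp4 2.25-fold higher, Cd34 1.95-fold lower and Ly6a 1.85-fold higher. The summed adipocyte markers were at 6.65, 15.5, 6.79 and 9.46 CPM in CAF-marker cells, with 5, 2, 4 and 2 of the 8 at 0. The summed EC markers were at 35.9, 64.0, 39.95 and 87.8 CPM and the macrophage markers at 99.1, 38.0, 56.0 and 89.6 CPM. The KPC markers were higher, at 941, 2052, 631 and 1528 CPM, and the pericyte markers were at 388, 197, 214 and 140 CPM. The part of admixed RNA in Fabp4, Cd36, Lpl, Ly6a and Pparg levels was not tested.

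How many CAF-marker cells carried the genes was compared as the share with at least 1 UMI, with every cell thinned to 2000 UMIs because the median depth of these cells ranged from 4873 to 10965 UMIs. Cells below 2000 UMIs were left out, 18, 58, 201 and 240 of them. Ly6a was found in 47.6% of thinned cells (44.4 to 50.9) in the D-CAN library and 5.98% (4.87 to 7.25) in WT/PBS, and in 61.5% and 17.4% of unthinned cells. Pi16 was in 28.1% against 4.11% (42.4% and 13.4% unthinned), Cd34 in 18.4% against 2.86% (38.1% and 11.97%), Dpp4 in 5.78% against 0.809% (16.3% and 3.09%) and Lpl in 38.7% against 20.3% (57.4% and 44.0%). After GCV, Pi16 was in 0.877% (0.106 to 3.13) against 5.99% (3.87 to 8.77), and in 4.07% against 8.50% unthinned, where the intervals overlapped. Of the 18 pairs of gene and treatment, 6 had intervals that did not overlap after thinning and 9 before. The share over all genes was not counted, so these counts cannot be read as a trait of the 9 genes.

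Free RNA can add to these shares, and its part in CAF-marker cells was not tested. KPC-marker cells were taken as a background because their levels of these genes were low, so that CAF shares above it were likely from the start. They were also deeper than CAF-marker cells in every library, and thinning then leaves less free RNA in them. In thinned KPC-marker cells, which should lack the fibroblast genes and had median depths of 8431.5 to 21916 UMIs before thinning, Cd34 was found in at most 0.177% of cells, Pi16 in at most 0.186%, Dpp4 in at most 0.318% and Lpl in at most 1.04%. The shares of all 4 genes in CAF-marker cells lay above these values in every library. The intervals of Dpp4 in Pdgfrb-TK/PBS (0.155% to 2.17%) and of Pi16 in Pdgfrb-TK/GCV (0.106% to 3.13%) reached below the KPC shares. No such background was set for Ly6a and Pparg, which KPC-marker cells held at 13.8 CPM or more. Cd36 in thinned CAF-marker cells was found in 0%, 0.249%, 0% and 0.436%.

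**Figure D4:**
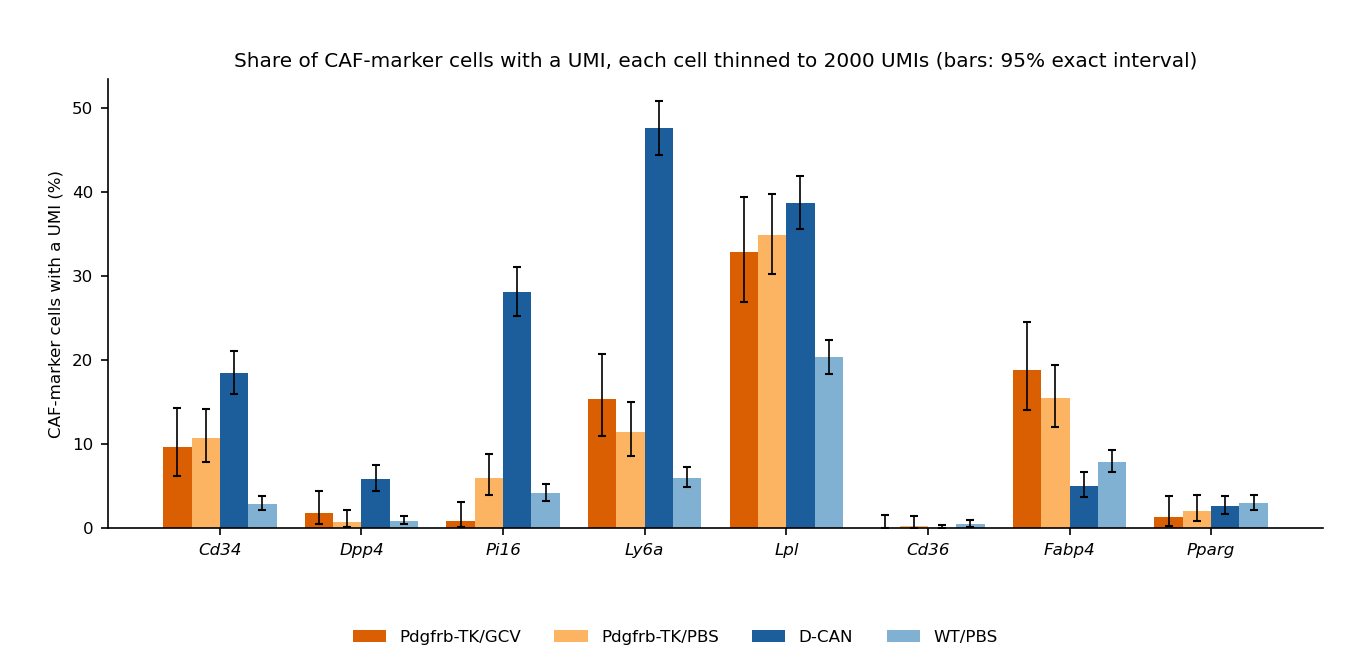
Percent of CAF-marker cells with at least 1 UMI of each gene after each cell was thinned to 2000 UMIs, 1 bar per library with its exact 95% binomial interval. The D-CAN library lies highest for Ly6a (47.6%), Pi16 (28.1%) and Cd34 (18.4%).

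The progenitor genes were found together in single cells of the D-CAN library. At least 2 of Cd34, Dpp4, Pi16 and Ly6a were detected in 30.2% of its thinned CAF-marker cells (27.3 to 33.2), against 1.87% in WT/PBS (1.26 to 2.66), 5.49% in Pdgfrb-TK/PBS and 2.63% in Pdgfrb-TK/GCV. None of the 4 was detected in 39.1% of cells of D-CAN and in 75.9% to 88.4% of cells of the other libraries. Of 267 D-CAN cells with Pi16, 67.4% had Ly6a, and of 684 without it 39.9% did. The same order held in WT/PBS, with 28.8% of 66 cells against 5.00%. These shares describe cells of single libraries. The share of cells with at least 2 genes also rises with the share of each gene alone, and that part was not tested. At least 2 of Lpl, Fabp4, Pparg and Cd36 were found in 6.14%, 5.49%, 3.58% and 2.55% of cells, with no such excess in D-CAN.

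In EC-marker cells 6 genes could be compared after D-CAN. Ly6a was higher and Cd36 and Lpl lower past 2-fold, where 15.1% of all genes were higher and 5.43% lower. Cd36 was 3.76-fold lower (2.95 to 4.86) and Ly6a 2.14-fold higher (1.84 to 2.48), a call that was lost with TMM scaling (0.78 on the log2 scale). Lpl rested on 1 UMI against 60 and was 17.6-fold lower (3.05 to 708). Fabp4 was 1.51-fold lower and Cd34 was level at 1.01-fold. Between the PBS libraries, Pdgfrb-TK/PBS was 2.66-fold below WT/PBS for Lpl in these cells (4 UMIs against 60). It was 1.62-fold above WT/PBS for Cd36 and 1.37-fold above it for Ly6a. After GCV 5 genes could be compared, with Ly6a 3.16-fold higher (2.50 to 4.004) and Pparg 2.16-fold lower (1.12 to 4.49, 12 UMIs), where 5% of all genes were higher and 5.03% lower. The median log2 difference of all genes in these cells was 0.23 after D-CAN and -0.01 after GCV.

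In macrophage-marker cells 7 genes could be compared after each treatment. After D-CAN, Fabp4 was 11.1-fold lower (7.86 to 16.0) and Cd36 2.75-fold lower (2.19 to 3.46), while Ly6a was 42.2-fold higher (22.7 to 88.6, 416 UMIs against 10) and Dpp4 5.89-fold higher (3.44 to 10.7). Between the PBS libraries, Pdgfrb-TK/PBS was 8.06-fold above WT/PBS for Ly6a and 3.71-fold for Dpp4 in these cells, and 1.02-fold below it for Fabp4. Over all genes 15.1% were higher and 4.26% lower, and the median log2 difference was 0.28. After GCV, Cd36 alone of the 7 was past 2-fold, at 2.84-fold lower (2.004 to 3.96), where 6.95% of all genes were higher and 3.11% lower. Lpl was 1.67-fold higher after GCV and 1.66-fold higher after D-CAN, inside the limit both times. Set against Pdgfrb-TK/PBS, the D-CAN library was 1.66-fold lower for Lpl. Against that control Cd36 was 1.94-fold lower and Dpp4 1.59-fold higher, inside the limit. Ly6a (5.23-fold higher) and Fabp4 (10.8-fold lower) stayed past it.

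In KPC-marker cells 8 genes had enough UMIs after each treatment. Of these, Cd34, Dpp4, Pi16 and Cd36 lay under 1 CPM in every library, where the 1 CPM added draws ratios toward no difference. Their lack of a call therefore cannot show that they stayed inside 2-fold. On CPM as measured, Cd34 was 4.05-fold lower (2.33 to 7.45) after D-CAN. Pi16 was 3.07-fold (1.76 to 5.59) and Dpp4 2.66-fold higher (1.38 to 5.37) there, and Pi16 was 2.20-fold lower (1.05 to 4.78) after GCV. These ratios rested on 13 to 73 UMIs per library, and the part of free RNA in them was not tested. With 1 CPM added, Ly6a alone was past 2-fold after D-CAN, at 9.61-fold higher (9.05 to 10.2), where 7.6% of all genes were higher and 2.05% lower. Pdgfrb-TK/PBS was 3.27-fold above WT/PBS for Ly6a. After GCV, Fabp4 alone was past 2-fold with 1 CPM added, at 2.67-fold lower (2.50 to 2.85), where 3.57% were higher and 1.35% lower. Pdgfrb-TK/PBS was 1.97-fold above WT/PBS for Fabp4, and against WT/PBS the Pdgfrb-TK/GCV library was 1.35-fold lower, inside the limit. Pparg was 1.10-fold higher after D-CAN and 1.88-fold lower after GCV. Ly6a was thus above WT/PBS in all 4 classes of the D-CAN library, and Fabp4 below it in all 4, by 2.26-fold in CAF-marker, 1.51-fold in EC-marker, 11.1-fold in macrophage-marker and 1.98-fold in KPC-marker cells. The D-CAN library also held Ly6a at 67.8 CPM in its acinar-marker cells, a class that should lack it, and the part of free RNA in the Ly6a levels of the other classes was not tested.

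Lists of genes of the same programs, which include some of the 9, were counted in CAF-marker cells. The lists were chosen with earlier results of these data known, so their counts are a description and no separate support. Of 12 genes of the adipose progenitor list all could be compared after D-CAN, and 6 were higher and none lower past 2-fold, with a median log2 difference of 1.02, where 11.7% of all genes were higher and 6.41% lower. Beside Dpp4 and Pi16 these were Clec3b (40.2-fold), Dpt (10.8-fold), Ly6c1 (9.93-fold) and Cd55 (3.78-fold). Pdgfrb-TK/PBS was also above WT/PBS for Clec3b (36.2 against 5.82 CPM), Dpt (74.2 against 35.2), Ly6c1 (31.999 against 12.9) and Cd55 (24.97 against 8.93). D-CAN was above both PBS libraries for each, at 234, 378, 128 and 33.7 CPM. Clec3b encodes tetranectin, Dpt the matrix protein dermatopontin and Cd55 a complement regulator. After GCV 10 could be compared, 1 was higher, Cd55 at 2.33-fold, and 5 were lower, with a median of -0.83, where 2.91% of all genes were higher and 6.25% lower. The lower ones beside Pi16 were Clec3b (-1.72 on the log2 scale), Dpt (-1.61), Ly6c1 (-1.59) and Sema3c (-1.06). Against WT/PBS, Pdgfrb-TK/GCV was above it for Clec3b (10.3 against 5.82 CPM). It was below WT/PBS, inside 2-fold, for Dpt (23.6 against 35.2), Ly6c1 (9.97 against 12.9) and Sema3c (13.0 against 19.0). Pi16 was 2.29-fold lower against that control, and Cd55 was higher (58.2 against 8.93 CPM).

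Genes of committed preadipocytes were split after D-CAN. Of 12, 5 were higher and 5 lower, with a median of 0.19, against 11.7% and 6.41% of all genes. Lpl was among the higher, and Fabp4 and Cd36 were among the lower. Zfp423, a preadipocyte zinc finger factor, was 4.96-fold and Ggt5 3.64-fold higher, as were Apoe (2.46-fold) and Pltp (2.39-fold), which act on lipoproteins. Dlk1, an inhibitor of adipocyte formation, was lower (-1.96 on the log2 scale), and the adhesion molecules Vcam1 (-1.50) and Icam1 (-1.27) were lower too. In Pdgfrb-TK/PBS, Dlk1 (1.05 CPM), Vcam1 (128) and Icam1 (27.4) lay closer to D-CAN (1.70, 119 and 55.5) than to WT/PBS (9.50, 338 and 135). Apoe was higher in Pdgfrb-TK/PBS (820 CPM) than in D-CAN (615), and Pltp (61.9) lay between D-CAN (86.7) and WT/PBS (36.3). Zfp423 (11.3 CPM) and Ggt5 (10.2) of Pdgfrb-TK/PBS lay near WT/PBS (7.62 and 9.68) and below D-CAN (37.8 and 35.2). After GCV, of 10 genes 2 were lower, Ggt5 (-2.07) and Col15a1 (-1.13), and none was higher, against 6.25% and 2.91% of all genes. Pdgfrb-TK/GCV was below WT/PBS too for Ggt5 (1.66 against 9.68 CPM) and, inside 2-fold, for Col15a1 (340 against 499). Of the 12 adipocyte genes 5 could be compared after D-CAN and 1 was lower, Cfd with 0 UMIs against 118, of which 92 lay in the 1 CAF-marker cell with 6 Adipoq UMIs, and of 2 after GCV 1 was lower, Cidec.

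Of 16 genes of fatty acid uptake and carriage, 4 were higher and 3 lower after D-CAN. The shares over all genes were 11.7% higher and 6.41% lower after D-CAN and 2.91% and 6.25% after GCV. The transporter-family gene Slc27a3 (4.72-fold), the lipase inhibitor Angptl4 (2.55-fold) and the acyl-CoA synthetase Acsl5 (2.33-fold) were higher with Lpl, and Fabp3 (-2.91) was lower with Fabp4 and Cd36. Pdgfrb-TK/PBS was above D-CAN for Angptl4 (179 against 157 CPM) and Acsl5 (52.0 against 45.5), with WT/PBS at 61.6 and 19.5. Its Fabp3 level was 1.76 CPM, against 2.67 in D-CAN and 26.5 in WT/PBS. Its Slc27a3 level (3.87 CPM) lay between D-CAN (7.44) and WT/PBS (1.58). After GCV, Fabp3 was 4.16-fold and the caveolin Cav1 2.53-fold higher, and none of 14 was lower. Against WT/PBS, Pdgfrb-TK/GCV was lower for Fabp3 (7.31 against 26.5 CPM) and higher for Cav1 (89.1 against 23.7). Of 8 lipoprotein receptors the scavenger receptors Olr1 (2.75-fold) and Msr1 (22 UMIs against 8) were higher after GCV, and Sdc1 (-1.07) was lower after D-CAN. The summed macrophage markers in CAF-marker cells were at 99.1 CPM in Pdgfrb-TK/GCV against 38.0 in Pdgfrb-TK/PBS. The part of macrophage RNA in the Msr1 level was not tested. Of 12 storage and efflux genes 2 were lower after D-CAN, the lipase Pnpla2 (-1.45) and Hilpda (-1.04), and none of 11 passed 2-fold after GCV. Of 12 PPAR and adipogenic regulators Nr1h3 (8.31-fold) and Ebf2 (2.96-fold) were higher and Klf15 (-1.21) lower after D-CAN. Klf15 was also low in Pdgfrb-TK/PBS (1.76 CPM, against 3.64 in D-CAN and 9.76 in WT/PBS). Nr1h3 of Pdgfrb-TK/PBS (9.85 CPM) lay between D-CAN (20.4) and WT/PBS (2.45), and Ebf2 (34.5) was near WT/PBS (32.7). After GCV, of 9, Klf4 (2.26-fold) and Cebpb (2.03-fold) were higher and Ebf2 (-2.21) lower. Against WT/PBS, Pdgfrb-TK/GCV was lower for Cebpb (436 against 613 CPM) and Ebf2 (6.65 against 32.7) and higher for Klf4 (203 against 148). None of the 3 receptors of adiponectin, Adipor1, Adipor2 and Cdh13, passed 2-fold in CAF-marker cells.

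**Figure D5:**
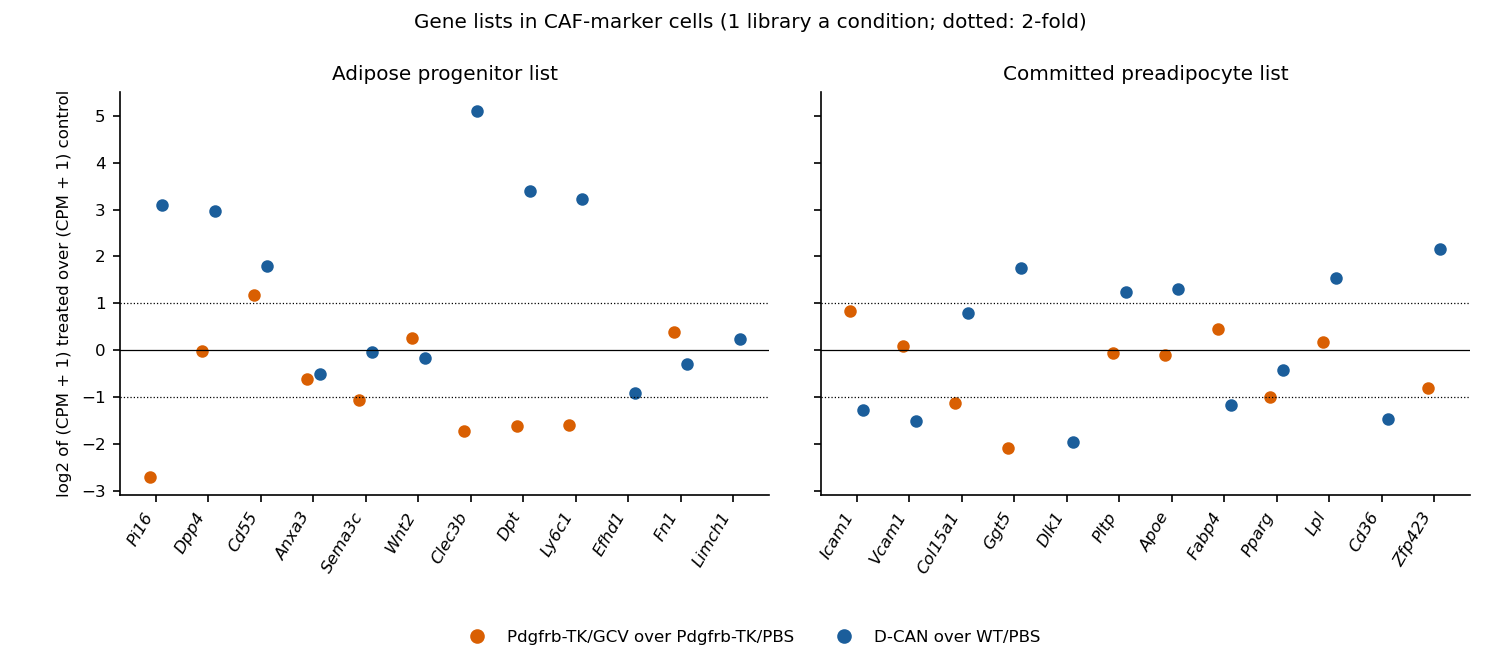
Log2 ratio of CPM (1 CPM added to each) of treated to PBS library in CAF-marker cells for the genes of the adipose progenitor and committed preadipocyte lists, 1 point per gene with at least 20 UMIs and treatment, with dotted lines at 2-fold. The progenitor list has its median at 1.02 after D-CAN and -0.83 after GCV. The lists were chosen with earlier results of these data known.

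For each gene the pattern over 31 sums of class and library with at least 20 cells was compared with that of other genes, as a description. The sums share libraries and depth. Cd34 was most like Dchs1 (Pearson r = 0.942), Fgd5 and Vwa1, and Lpl was most like Col14a1 (0.873), Spon1 and Clmp. Pi16 was most like C3 (0.835), Igfbp6 and Dpt, the last of which is also in the progenitor list. Fabp4 was most like Dysf (0.867), Gng11 and Tmem47, Cd36 like Cbfa2t3 (0.845), BC028528 and Zfp366, and Pparg like Acadm (0.854), Tspan15 and Mgst3. Dpp4 was most like H2-Oa (0.845), and Ly6a like Ercc1 (0.747) and Ly6c1 (0.715). Adipoq was too low in every sum to be placed.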

How the data were processed

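Tumor cell suspensions were captured with a droplet 3′ kit, giving 1 library per condition. The authors deposited filtered gene-by-cell tables of whole UMI counts, not normalized, made against mm10 with Cell Ranger and STAR 2.6 per the submitters' processing notes. The file headers give Cell Ranger 7.0.0, and the study's methods name an earlier version. GFP features listed in 2 of the libraries were not used.

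Cells with at least 200 genes were gated by 12 classes of 8 markers each, and counts were summed per class and library. Classes were compared with edgeR 4.0.16 (R 4.3.3), quasi-likelihood test, filterByExpr, library as a block and Benjamini-Hochberg adjustment over 14383 genes at 0.05. The libraries are the replicates and differ in condition. With the library as a block, p-values set the mean class difference against its spread from library to library. Treatments were compared as CPM ratios with exact conditional binomial intervals, and levels carry exact Poisson and shares exact Clopper-Pearson intervals, at 95%. UMIs of 1 cell are separate molecules but share that cell, and the intervals of sums leave out the spread between cells. Cells of pooled mice are not independent animals either. The edgeR and ratio steps were tested on simulated data. The 9 genes and all lists were chosen with earlier results of these data known. Named genes were the 9, the 3 most alike to each by Pearson correlation of log2(CPM + 1) among genes with at least 50 CPM in a sum, and genes of the lists past 2-fold. Upstream windows came from RefSeq and gene coordinates from GENCODE M21, both on GRCm38; Ly6a, Lpl and Fabp4 had no window in the table. Alternatives were Leiden clusters (scanpy 1.11.5), stricter gates and cell filters, other added CPM and UMI minimums, TMM scaling, the other PBS library as control, DESeq2 1.42.0, no low-count filter, no library block and leaving out each library.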

Additional observations from a re-analysis of the deposited data

Results flagged for a closer look

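Lpl differed in opposite directions between classes in the D-CAN library against WT/PBS, at a log2 ratio of 1.55 in CAF-marker cells and -3.25 in EC-marker cells. The value in EC-marker cells rested on 1 UMI against 60, and the difference between the classes was not tested. The PBS libraries differed in the same directions, with Pdgfrb-TK/PBS over WT/PBS at 1.28 in CAF-marker cells and -1.29 in EC-marker cells. The latter value rested on 4 UMIs against 60.

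Unassigned cells, which enter no comparison of classes, held 82 of the 111 Adipoq UMIs of the WT/PBS library (73.9%). The other 3 libraries held 6, 2 and 2 Adipoq UMIs in all their cells.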

How the results depend on the processing

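In CAF-marker cells after GCV, 1 gene past 2-fold became 2 when no other class could have 2 or more markers (33 against 116 cells, Pi16 then at a log2 ratio of -0.73), with at least 500 genes per cell, with clusters and in cells without a mesothelial marker (chosen after seeing the data), and 6 against the PBS library of the other host. After D-CAN, 7 became 4 against the PBS library of the other host and stayed at 6 to 8 under the other alternatives. The number of calls in the other 3 classes, 12, ranged from 11 to 16, but the calls were not all the same ones. Against the PBS library of the other host, Ly6a in EC-marker cells and Dpp4 and Cd36 in macrophage-marker cells were inside 2-fold after D-CAN. So were Pparg in EC-marker cells and Fabp4 in KPC-marker cells after GCV. Lpl in EC-marker cells had too few UMIs after D-CAN. Fabp4 in EC-marker and KPC-marker cells after D-CAN passed 2-fold with that control and not with its own. The 40 class calls ranged from 37 to 42 with 1 library left out, and were 34 without the library block, 39 with clusters and 40 with DESeq2. Of 576 single class differences under an alternative, 553 kept direction and call, 17 lost the call, 5 gained it and 1 reversed, Cd36 between CAF and KPC without WT/PBS (-0.091 to 1.82 with 1 library left out). Of 559 single treatment ratios 126 moved by more than their counting interval and none that was called changed sign. No paired analysis was possible because each treatment had 1 library. The 47 EC-marker cells of Pdgfrb-TK/GCV and 1 to 4 UMIs of Lpl or Cd36 in some sums limit those ratios. The causes of these moves were not tested.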
